A study of Mus musculus with 2 samples.

Results

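The genes described here are 35 genes of the extracellular matrix, the mesh of secreted proteins in which the cells of a tissue sit. They were chosen by symbol from a list of collagens, laminins, proteoglycans and their processing proteins, and all 35 were found among the 32285 genes counted. They fell into 5 fibrillar collagen chains, 5 beaded or fibril-associated collagen chains, 6 proteoglycans and glycoproteins, 4 elastic fibre genes, 12 basement membrane genes and 3 genes of matrix turnover and collagen folding. A further 147 matrix genes in 6 lists were described by counts. The study asked how the cells of the mouse pituitary differ with age. Pituitaries from C57BL/6 males, with no genetic change given, were dissociated whole, red blood cells were lysed, and single cells were captured in droplets for 3' RNA sequencing, which counts each captured transcript end once through a unique molecular identifier (UMI). The old library came from 10 pooled glands of mice aged 20 months, and the young library from 10 pooled glands of mice aged 2 months. Each age was thus 1 library, so no difference could be tested, age and library cannot be told apart, and each interval given covers counting error only.

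Fibrillar collagens form the rope-like fibres of connective tissue and are made mainly by fibroblasts. Basement membranes are thin sheets under epithelia and around capillaries, built from type IV collagen, laminins, nidogens and the heparan sulfate proteoglycan perlecan. In the anterior pituitary the endocrine cells lie in cords, and a basement membrane and a collagen-containing space separate them from fenestrated capillaries.

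The old library held 138427393 UMIs and the young library 154510099. After filters and removal of predicted doublets, 9017 old and 8531 young barcodes remained. Of these, 5540 old barcodes and 1 young barcode fell in a cluster whose profile was that of free RNA, and they were left out of all classes. Among the kept barcodes, 26 sequences occurred in both libraries. Levels are CPM, the UMIs of a gene per 1000000 UMIs, with 7 pituitary hormone genes and 13 mitochondrial genes left out of the total. Classes were named from 117 marker genes, none of them a matrix gene, and all matrix genes were left out of the clustering. Since a transcript is counted by its 3' end, levels of different genes do not scale with transcript length.

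Connective tissue cells were few. Cluster s1 was fibroblast-like (27 old and 9 young cells) and was led by Dcn, Igfbp6, Mgp and Prg4. Cluster s5 (8 old and 17 young cells) stayed unnamed, because its fibroblast score led its mural cell score by too little. Mural cells are the pericytes and smooth muscle of vessels. Since s1 alone held under 20 young cells, both clusters were also pooled as fibroblast-scoring cells, 35 old and 26 young. In them, all 10 fibroblast markers were detected in both libraries, and summed to 7088 CPM in old and 23964 CPM in young cells. The 10 mural cell markers summed to 1576 CPM in old and 1120.1 CPM in young cells. Endothelial cell-like cells numbered 68 old and 83 young, and all 11 endothelial markers were detected in both.

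Matrix RNA was concentrated in the connective tissue cells. Taking the mean of the old and the young level, 31 of the 35 genes were highest in s5 or s1 among 16 classes and clusters, 21 of them in s5 and 10 in s1. The exceptions were Col4a2 (type IV collagen alpha 2 chain) and Hspg2 (perlecan), highest in endothelial cell-like cells, and Nid2 (nidogen 2) and Npnt (nephronectin, an integrin ligand of basement membranes), highest in stem cell-like cells. These are the Sox2-expressing progenitors of the gland. Npnt was nearly as high in pituicyte-like cells, with a mean of 66.0 CPM against 68.9 CPM in stem cell-like cells. With s1 and s5 pooled, 27 genes were highest in the fibroblast-scoring cells, and Col4a1, Col15a1, Eln and Timp3 joined the endothelial side.

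Interstitial collagens and decorin stood far above their level in the other classes. Col3a1, which encodes the type III collagen chain, had a mean level of 915 CPM in s1 and 472 CPM in s5, against 16.9 CPM in pituicyte-like cells, the next class. Col1a1, the type I collagen alpha 1 chain, had 699.8 CPM in s5 and 580.1 CPM in s1, and the next class, endothelial cell-like cells, had 8.16 CPM. Dcn encodes decorin, a small proteoglycan that binds collagen fibrils. It was the most abundant of the 35 in this compartment, with 11950.3 CPM in s5 and 8216 CPM in s1. The clusters differed in Lum, the related proteoglycan lumican, at 1681 CPM in s5 and 111 CPM in s1, and in the laminin beta 1 gene Lamb1, at 373 CPM in s5 and 8.41 CPM in s1.

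Basement membrane genes were spread over more classes. Col4a1 had a mean level of 1079 CPM in s5, 941 CPM in endothelial cell-like cells and 455 CPM in s1. Hspg2 had 363 CPM in endothelial cell-like cells, 254 CPM in s5 and 42.8 CPM in s1. Lamc1, the laminin gamma 1 chain shared by most laminins, had 254 CPM in s5, 108 CPM in stem cell-like cells and 107 CPM in endothelial cell-like cells. Timp3, an inhibitor of matrix proteases that is itself bound to matrix, had 3263 CPM in s5, 3066 CPM in endothelial cell-like cells and 650.3 CPM in stem cell-like cells.

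**Figure D1:**
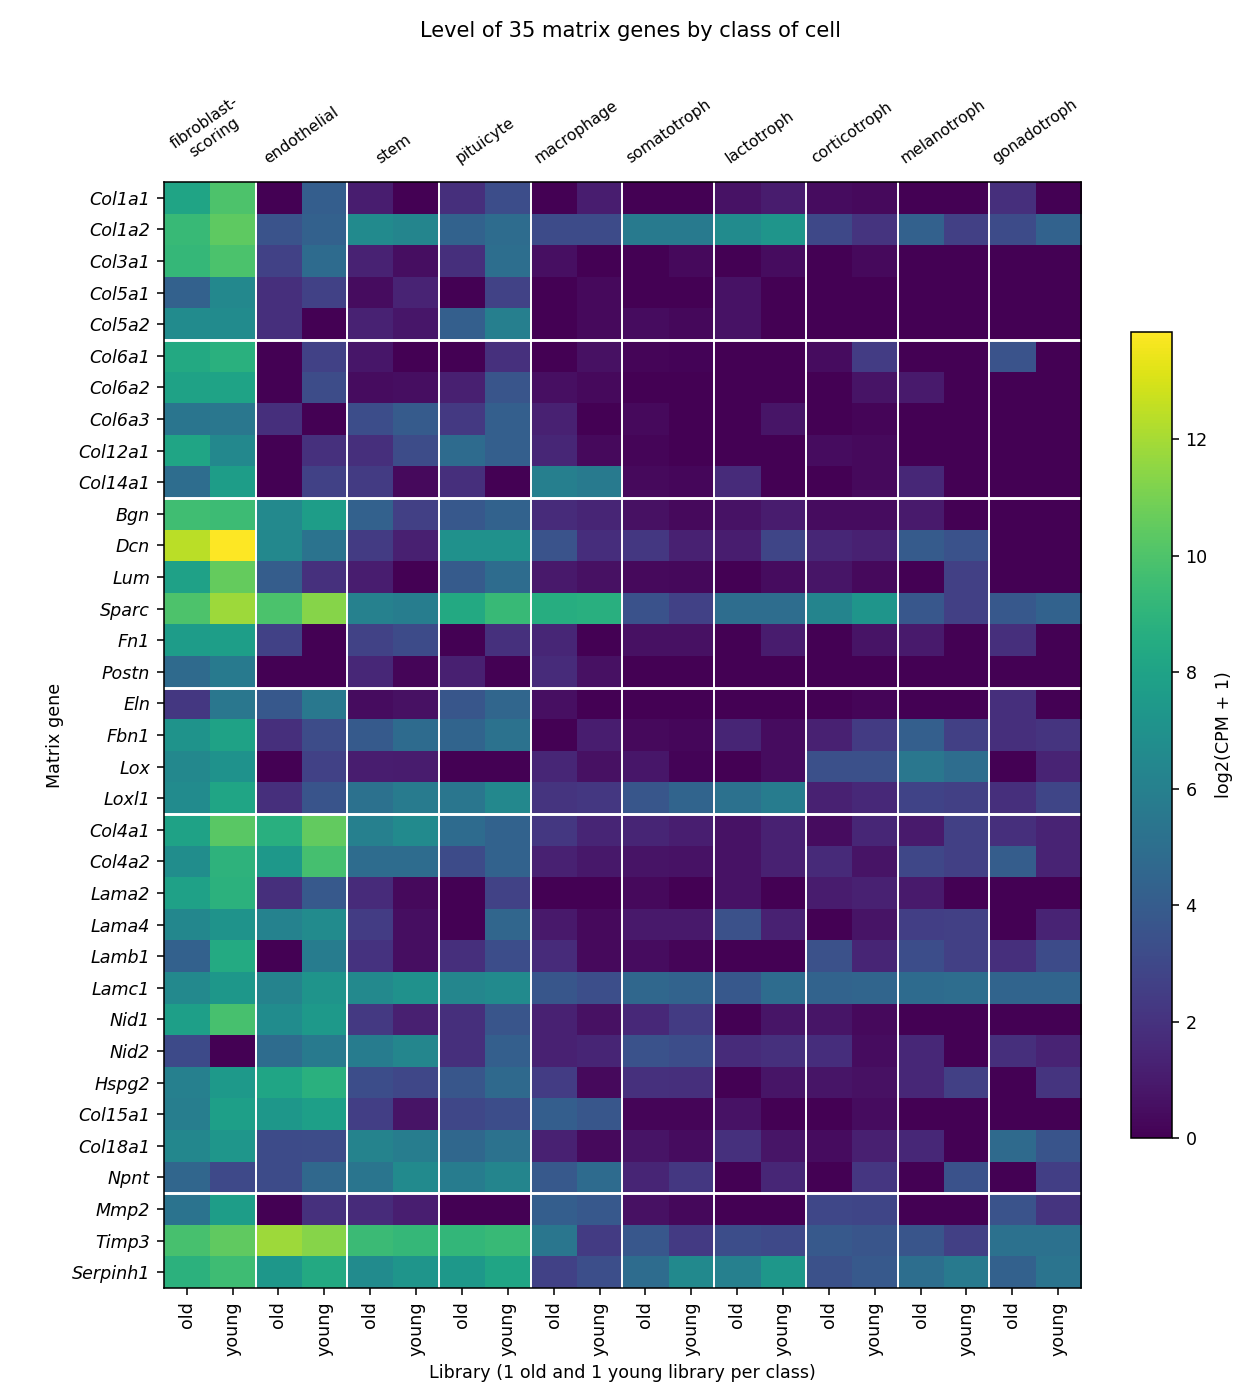
Level of each of the 35 genes (rows, grouped by role, white lines between groups) as log2(CPM + 1) in each class of cell, with the old library left of the young one. The fibroblast-scoring columns are brightest for most rows, Timp3 and Sparc are bright in several classes, and Col1a2 is visible in somatotroph-like, lactotroph-like and stem cell-like cells where Col1a1 is dark.

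Endothelial cell-like cells of the old library held less basement membrane RNA. The 12 basement membrane genes summed to 1325 CPM in old and 3567 CPM in young cells, a ratio of 0.371 (0.334 to 0.412); here and below, a ratio is old over young with its exact 95% counting interval. Of the 35 genes, 15 held at least 20 UMIs in the 2 libraries together. Of these 15, 7 were at least 2-fold lower in old cells and 1 was at least 2-fold higher; over all 5710 genes with as many UMIs, 6.27% were at least 2-fold lower and 5.2% at least 2-fold higher. The median log2 ratio was -0.96 over the 15 members and -0.03 over all genes. With Lamb1, which was at 0 in old cells, set at a floor of 3 UMIs, it was -0.98. The 11 endothelial markers, by which the class was named, summed to 15393 CPM in old and 15916 CPM in young cells. Since the class was chosen by these markers, their sums cannot show that its cells are otherwise alike.

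Type IV collagen made up most of the difference in the sum. Col4a1 (gene identifier ENSMUSG00000031502) had 424 CPM (360.4 to 495) in old and 1458 CPM (1337 to 1587) in young cells, from 159 old and 536 young UMIs, a ratio of 0.291 (0.242 to 0.347). Col4a2 (ENSMUSG00000031503) had 168 CPM in old and 862 CPM in young cells, a ratio of 0.195 (0.146 to 0.256). The chains of these genes form the type IV collagen heterotrimer found in nearly all basement membranes. Cell by cell, Col4a1 ranged from 0 to 15.1 UMIs per 10000 UMIs in old cells, with a median of 3.45 and 15 of 68 cells at 0. In young cells it ranged from 0 to 83.1, with a median of 9.70 and 9 of 83 cells at 0. Col4a2 had a median of 0.641 in old and 5.22 in young cells, with 33 of 68 old and 16 of 83 young cells at 0. The cells of the libraries overlapped for both genes, but the upper end of the range was reached by young cells alone.

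Col4a1 and Col4a2 lie head to head on mouse chromosome 8 and are read in opposite directions, so their promoter windows are shown together. Each window runs from 250 bases before to 50 bases after the RefSeq gene start on build GRCm38.p6, 5' to 3' on the gene's own strand. Capitals mark GC boxes (GGGCGG) and CCAAT boxes (CCAAT) on either strand.
Col4a1 (chr8:11312777-11313076, minus strand): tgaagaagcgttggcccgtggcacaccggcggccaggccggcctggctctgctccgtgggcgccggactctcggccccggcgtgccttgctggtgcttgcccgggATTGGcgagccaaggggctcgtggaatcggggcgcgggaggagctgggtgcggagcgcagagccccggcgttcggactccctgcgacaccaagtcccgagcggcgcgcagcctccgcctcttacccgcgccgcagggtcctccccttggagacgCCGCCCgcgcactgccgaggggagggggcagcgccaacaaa
Col4a2 (chr8:11312555-11312854, plus strand): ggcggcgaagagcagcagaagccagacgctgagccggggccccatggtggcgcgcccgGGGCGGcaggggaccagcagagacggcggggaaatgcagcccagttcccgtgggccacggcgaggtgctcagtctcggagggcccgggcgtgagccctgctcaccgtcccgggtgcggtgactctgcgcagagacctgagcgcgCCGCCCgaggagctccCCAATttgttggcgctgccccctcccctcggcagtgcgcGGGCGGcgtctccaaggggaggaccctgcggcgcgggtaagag
The starts lie 21 bases apart and the windows share 78 bases, chr8:11312777-11312854. Within the shared bases, the GC box near the end of the Col4a1 window and the last GC box of the Col4a2 window are the same site. RefSeq windows were found for 21 of the 35 genes. A GC box occurred for 15 of these genes and in 35.7% of all 32851 windows, and a CCAAT box for 7 of them and in 37.4% of all windows. The 21 genes had 25 windows, and a gene counted where any of its windows held the motif. Gene counts and window shares are thus in different units, and the GC box shared by Col4a1 and Col4a2 counted for both. Across the 16 classes and clusters, the levels of the pair as log2(CPM + 1) had a Pearson correlation of 0.96 and a Spearman correlation of 0.77, given as a description, since the classes share libraries and free RNA. Col4a1 took 64.7% of the UMIs of the pair in endothelial cell-like cells, 71.3% in fibroblast-scoring cells and 75.6% in stem cell-like cells.

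The laminins, nidogens and perlecan were lower by less. Hspg2 had 279.8 CPM in old and 446 CPM in young endothelial cell-like cells, a ratio of 0.627 (0.486 to 0.806). Nid1 (nidogen 1, which links laminin to type IV collagen) had a ratio of 0.603 (0.396 to 0.907) and Lamc1 one of 0.509 (0.307 to 0.825). For Lama4 (laminin alpha 4, a chain of endothelial laminins) and Nid2 the intervals included 1, at 0.670 (0.391 to 1.13) and 0.567 (0.244 to 1.25). Col15a1, whose product lies beneath the basement membrane, had 0.696 (0.490 to 0.984). Lamb1 was the exception, with 0 UMIs in old and 20 UMIs in young cells. With the old class set at a floor of 3 UMIs, Lamb1 was 6.81-fold lower in old cells, without the counting error of the 20 young UMIs. The exact counting interval of the ratio reached up to 0.198. With a minimum of 1000 UMIs per barcode in place of 2000, Lamb1 was detected in old cells too, with a ratio of 0.244 (0.0808 to 0.620).

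Genes that accompany collagen secretion were lower as well. Sparc (ENSMUSG00000018593) encodes a collagen-binding glycoprotein of remodelling matrix. It had 986 CPM in old and 2626 CPM in young cells, a ratio of 0.376 (0.332 to 0.424). Per cell, its median was 7.69 UMIs per 10000 in old and 19.9 in young cells, and its highest value 28.7 in old and 86.6 in young cells. Serpinh1, which encodes the collagen chaperone HSP47 of the endoplasmic reticulum, had 159.9 CPM in old and 346 CPM in young cells, a ratio of 0.463 (0.335 to 0.634). Bgn (biglycan, a proteoglycan) had 90.6 CPM in old and 207 CPM in young cells, a ratio of 0.438 (0.283 to 0.665). Eln (elastin) had 5 UMIs in old and 17 in young cells, a ratio of 0.288 (0.0831 to 0.813).

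Timp3 went the other way. It was the most abundant of the 35 genes in this class, at 3555 CPM in old and 2577 CPM in young cells, a ratio of 1.38 (1.27 to 1.5). Its per-cell median was 29.6 UMIs per 10000 in old and 16.1 in young cells. Dcn was the gene that passed the 2-fold rule in the higher direction, at 87.9 CPM in old and 38.1 CPM in young cells. It was at 0 in 57 of 68 old and 73 of 83 young cells. In cluster s2 it held 31 old and 2 young UMIs, and in cluster s4 it was at 22.1 CPM in old and 50.8 CPM in young cells.

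**Figure D2:**
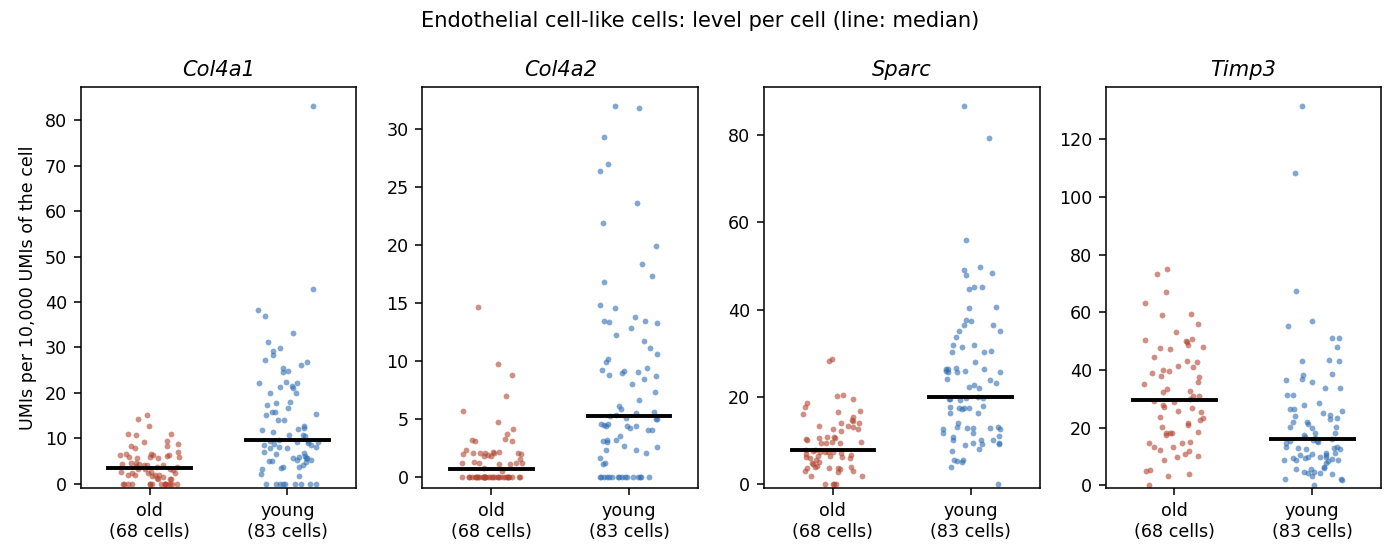
Level of 4 genes in each endothelial cell-like cell, in UMIs per 10000 UMIs of the cell, old cells left of young cells; the line is the median over cells. The Col4a1, Col4a2 and Sparc medians are lower in old cells (3.45, 0.641 and 7.69) than in young cells (9.70, 5.22 and 19.9), and the Timp3 median is higher in old cells (29.6 against 16.1).

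The difference was present in both endothelial clusters. In cluster s2 (46 old and 30 young cells) the basement membrane sum was 1398 CPM in old and 4015 CPM in young cells, a ratio of 0.348 (0.305 to 0.397). In cluster s4 (22 old and 53 young cells) it was 1093 CPM in old and 3318 CPM in young cells, a ratio of 0.330 (0.265 to 0.407). Markers of other cells also differed. The 4 erythroid markers (3 detected in each library, Alas2 at 0 in both) summed to 261 CPM in old and 3581 CPM in young cells of the class. Within s2 they were at 165 CPM in old and 213 CPM in young cells, with the ratio given above. The 7 macrophage markers (all 7 detected in old and 5 in young cells) summed to 749 CPM in old and 226 CPM in young cells. The 10 fibroblast markers (8 detected in old and 6 in young cells, Tcf21 at 0 in both) summed to 301 CPM in old and 68.0 CPM in young cells, and the part of either list in the result was not tested. A finer clustering set apart endothelial cells led by Cldn5, Fabp4 and Aplnr, 3 old and 11 young. Without them, Col4a1 was at 413 CPM in old and 1291 CPM in young cells. Among these 65 old and 72 young cells Aplnr itself still differed, at 8.21 CPM in old and 151 CPM in young cells. This came from 3 old and 49 young UMIs, and its part in the result was not tested.

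Among the further matrix genes of endothelial cell-like cells, 3 of 6 tested laminin and basement membrane genes were at least 2-fold lower in old cells and 1 was higher. Vwa1, a perlecan-binding protein, was at 50.6 CPM in old and 152 CPM in young cells. Ntn4, a laminin-like protein of vessel walls, was at 66.6 CPM in old and 27.2 CPM in young cells. Of 10 tested matrix receptors 3 were lower and 1 was higher, among them the laminin-binding integrin gene Itga6 with 107 CPM in old and 242 CPM in young cells. Of 12 collagen biosynthesis genes 2 were lower and 0 higher. Of 12 other proteoglycan and glycoprotein genes 3 were lower and 1 was higher. Of 7 proteases and inhibitors 0 were lower and 1 was higher, this being the inhibitor Timp2 with 80.0 CPM in old and 24.5 CPM in young cells. Both Timp2 levels lay below the 149 CPM of old and 96.4 CPM of young empty droplets, the barcodes with no more than 100 UMIs. No other collagen of 4 tested passed the 2-fold rule.

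The fibroblast-scoring cells of the old library held less RNA of fibrillar collagens and of basement membrane genes, in fewer cells than any other class compared here. Of 29 members with at least 20 UMIs, 14 were at least 2-fold lower in old cells and 1 was at least 2-fold higher, beside 5.79% lower and 10.3% higher of all 3764 genes. The median log2 ratio was -0.97 over the members and 0.06 over all genes. The 5 fibrillar collagen chains summed to 1644 CPM in old and 3559 CPM in young cells, a ratio of 0.462 (0.405 to 0.527). The 12 basement membrane genes summed to 1253 CPM in old and 4348 CPM in young cells, a ratio of 0.288 (0.251 to 0.330). The fibroblast marker sum given above was lower in old cells too, and its part in these ratios was not tested.

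Within each cluster of the pool both sums were lower in old cells, but the markers of the clusters differed between the libraries as well. In s5 the 10 fibroblast markers (7 detected in old and 10 in young cells) summed to 10176 CPM in old and 29731 CPM in young cells. The 10 mural cell markers (10 detected in old and 9 in young cells) summed there to 9968 CPM in old and 1809 CPM in young cells, and the 11 endothelial markers (10 detected in each, Cldn5 at 0) to 3582 CPM in old and 1350.2 CPM in young cells. In s1 the fibroblast markers (10 detected in old and 9 in young cells) summed to 6564 CPM in old and 16559 CPM in young cells. The 4 Schwann cell markers (2 detected in old and 1 in young cells) summed there to 814 CPM in old and 16.8 CPM in young cells. The 4 oligodendrocyte markers (4 detected in old and 1 in young cells) summed there to 647 CPM in old and 1363 CPM in young cells. The part of these markers in the ratios below was not tested. The fibrillar sum was 1751 CPM in old and 3467 CPM in young cells of s1, and 1012 CPM in old and 3631 CPM in young cells of s5. The basement membrane sum was 955 CPM in old and 2053 CPM in young cells of s1, and 3011 CPM in old and 6135 CPM in young cells of s5 (ratios of 0.465 (0.371 to 0.585) in s1 and 0.491 (0.397 to 0.603) in s5). Cluster s5, where these genes were higher, held 8 of the 35 old and 17 of the 26 young cells, and the pooled ratio lay below both. Of the 14 members at least 2-fold lower in the pool, 12 were lower in each cluster; Lum and Col15a1 were not. Lum was at 172 CPM in old and 50.5 CPM in young cells of s1, from 39 old and 3 young UMIs. In s5 it was at 675 CPM in old and 2687 CPM in young cells.

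Among the fibrillar chains, Col1a1 (ENSMUSG00000001506) had 275 CPM in old and 1002 CPM in young cells, a ratio of 0.274 (0.203 to 0.367). Per cell, its median was 1.80 UMIs per 10000 in old and 10.6 in young cells, with 12 of 35 old and 3 of 26 young cells at 0. Col1a2 had 651 CPM in old and 1378 CPM in young cells, a ratio of 0.472 (0.382 to 0.584). Col3a1 had 598 CPM in old and 987 CPM in young cells, a ratio of 0.606 (0.478 to 0.768), so that the chains did not differ by the same factor. Of the type V chains, which start collagen fibrils, Col5a2 had 102 CPM in old and 103 CPM in young cells, and Col5a1 held 5 old and 12 young UMIs.

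For the beaded type VI collagen chains no difference beyond counting error was seen. The ratio was 0.757 (0.540 to 1.07) for Col6a1, 0.95 (0.625 to 1.47) for Col6a2 and 0.936 (0.317 to 3.08) for Col6a3, and each interval included 1. Col14a1, a collagen that decorates fibrils, had 8 old and 28 young UMIs, a ratio of 0.146 (0.0575 to 0.328). Col12a1, another fibril-associated collagen, was the member that passed the rule in the higher direction, with 75 old and 12 young UMIs and a ratio of 3.19 (1.72 to 6.45). Of its old UMIs, 72 were in s1, and with a Leiden resolution of 2, which gave 22 old and 22 young fibroblast-scoring cells, its ratio was 0.829.

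Decorin RNA, the most abundant, was at 5504 CPM in old and 14759.8 CPM in young cells, a ratio of 0.373 (0.348 to 0.399), while Bgn was at 775 CPM in old and 729.5 CPM in young cells. Sparc had 1023 CPM in old and 3625 CPM in young cells, a ratio of 0.282 (0.242 to 0.328). Fn1 (fibronectin) had 199 CPM in old and 214 CPM in young cells, and its interval of 0.583 to 1.52 included 1. Postn (periostin) held 7 UMIs in each library. Loxl1, an enzyme that cross-links elastin, had a ratio of 0.363 (0.213 to 0.610) and Fbn1 (fibrillin 1, the scaffold of elastic fibres) one of 0.556 (0.339 to 0.912); Lox had 0.652 (0.337 to 1.28) and Eln held 1 old and 6 young UMIs.

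Type IV collagen was lower here too, with Col4a1 at 252 CPM in old and 1267 CPM in young cells, a ratio of 0.199 (0.148 to 0.265), and Col4a2 at 109 CPM in old and 494 CPM in young cells. Nid1 had 222 CPM in old and 899 CPM in young cells, a ratio of 0.247 (0.178 to 0.340). Lamb1 had 5 old and 48 young UMIs, 47 of the young ones in s5. Lama2, the laminin alpha chain of muscle and connective tissue, had 241 CPM in old and 472 CPM in young cells of the pool. Within s1 Lama2 was at 176 CPM in old and 101 CPM in young cells, a ratio of 1.74 (0.734 to 5.03). Within s5 it was at 623 CPM in old and 760 CPM in young cells, a ratio of 0.819 (0.487 to 1.34). Both intervals included 1, so the mix of clusters enters the pooled Lama2 levels. Nid2, with 2 old and 0 young UMIs, and Npnt, with 6 old and 1 young UMIs, were near absent. Mmp2, a protease that cleaves type IV collagen, had 10 old and 28 young UMIs, a ratio of 0.182 (0.0790 to 0.387). The protease inhibitor gene Timp3 was at 918 CPM in old and 1393 CPM in young cells of the pool, but above the young level in each cluster, at 369.6 CPM in old and 135 CPM in young cells of s1 and at 4153 CPM in old and 2373 CPM in young cells of s5.

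Of the further lists in fibroblast-scoring cells, 10 of 24 tested proteoglycan and glycoprotein genes were at least 2-fold lower in old cells and 2 were higher. The higher ones were Mgp (matrix Gla protein, an inhibitor of calcification), with 19062 CPM in old and 8791 CPM in young cells, and Ccn3, with 602 CPM in old and 95.8 CPM in young cells. Mgp was among the leading genes of s1, which held 27 of the 35 old and 9 of the 26 young cells of the pool. The mix of clusters thus enters these pooled levels, and its part was not tested. Of 10 collagen biosynthesis genes 3 were lower and 0 higher, and Pcolce, the enhancer of procollagen cleavage, was at 282 CPM in old and 707 CPM in young cells. Of 11 proteases and inhibitors 1 was lower and 1 was higher. The higher one was Timp1, with 332 UMIs in 7 of 35 old cells and 3 UMIs in 2 of 26 young cells, and 182 of the old UMIs lay in 1 cell. Of 4 other collagens 1 was lower and 1 higher, and of 5 other laminin and basement membrane genes likewise 1 and 1. None of 9 tested matrix receptors passed the rule, where the background shares were those given for this pool.

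**Figure D3:**
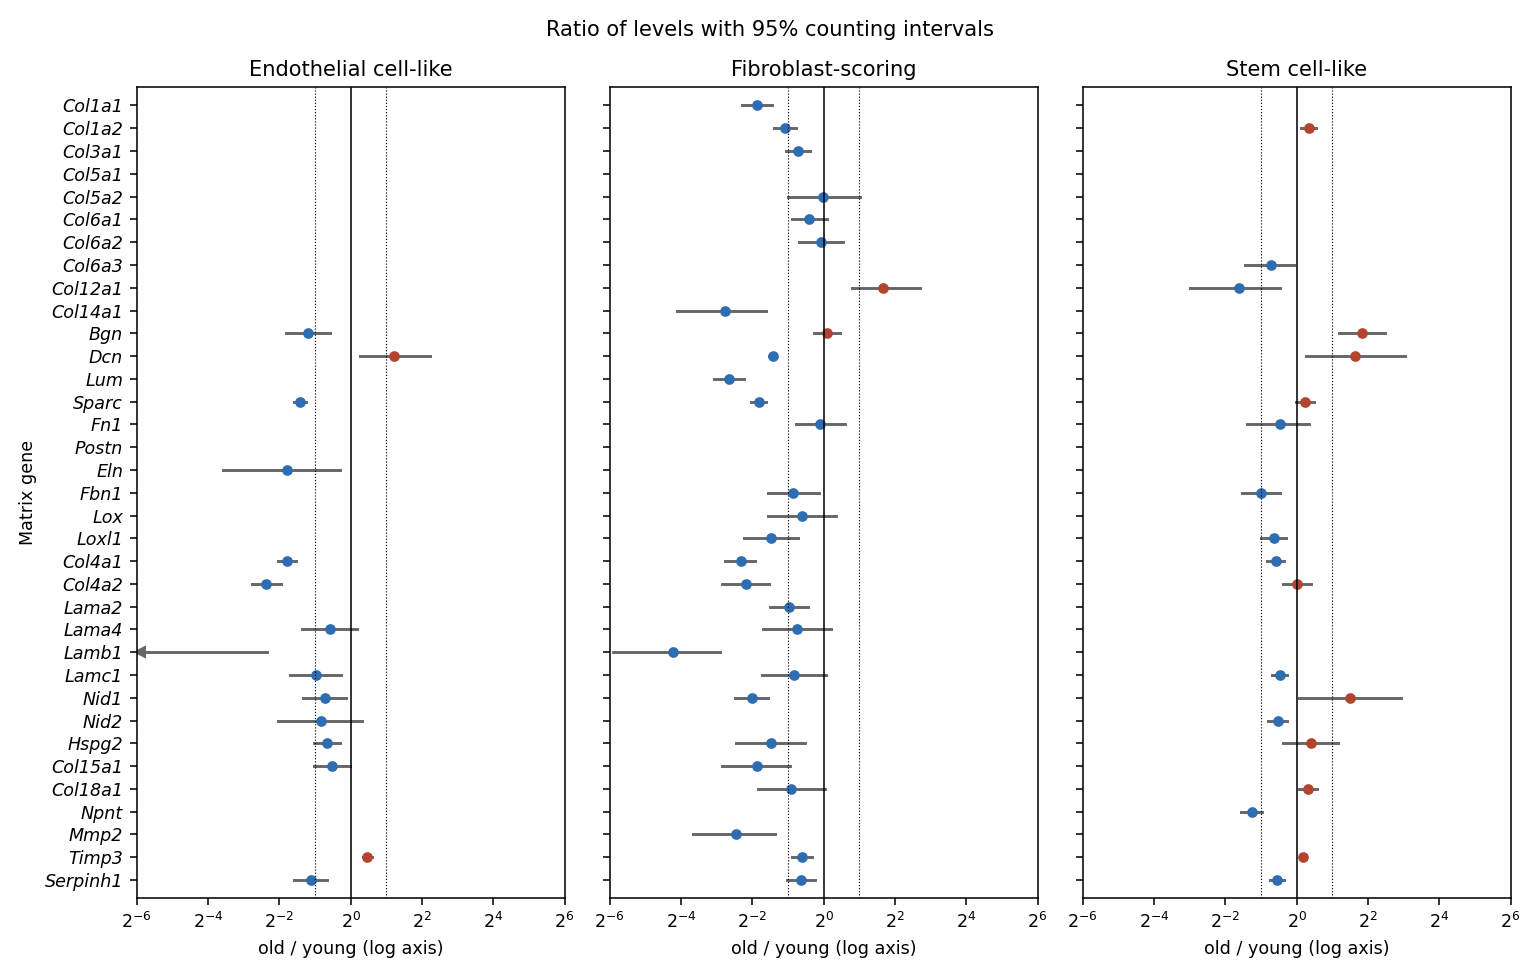
Ratio of the old to the young level (log axis) with exact 95% counting intervals, for each gene with at least 20 UMIs in the 2 libraries together, in endothelial cell-like, fibroblast-scoring and stem cell-like cells. Dotted lines mark 2-fold; blue points are lower and red points higher in old cells, and the arrow at Lamb1 stands for 0 old UMIs. Col4a1 lies left of 1 in all panels, at 0.291, 0.199 and 0.666.

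Stem cell-like cells (286 old and 977 young) expressed a set of basement membrane genes, with Lamc1, Nid2, Npnt, Col4a1 and Col18a1 (the type XVIII collagen from which endostatin is cut) as its main genes. The 12 basement membrane genes summed to 379 CPM in old and 497 CPM in young cells, a ratio of 0.764 (0.711 to 0.820). Of 19 tested members 2 were at least 2-fold lower in old cells and 3 were higher, beside 1.95% lower and 4.55% higher of all 12998 genes. Npnt was lower, at 40.7 CPM in old and 97.2 CPM in young cells, a ratio of 0.418 (0.338 to 0.514). Nid2 was at 55.2 CPM in old and 79.7 CPM in young cells, a ratio of 0.694 (0.574 to 0.834). Lamc1 was at 90.2 CPM in old and 126 CPM in young cells, a ratio of 0.718 (0.619 to 0.829). Col18a1 was at 71.0 CPM in old and 57.0 CPM in young cells, a ratio of 1.25 (1.04 to 1.49).

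Several of these values depended on a small cluster. Cluster s7 (7 old cells and 1 young cell, with a median of 33256 UMIs) scored second as endothelial, and with it the 11 endothelial markers summed to 355 CPM in old and 18.8 CPM in young stem cell-like cells. Without s7 they summed to 26.4 CPM in old and 9.96 CPM in young cells, and the basement membrane ratio was 0.683. Col4a1 was then at 52.8 CPM in old and 98.0 CPM in young cells, and Npnt at 42.3 CPM in old and 97.3 CPM in young cells. Sparc had a ratio of 1.18 (0.986 to 1.41) with s7 and 0.383 (0.281 to 0.514) without it, when it was at 21.4 CPM in old and 55.7 CPM in young cells. Timp3, the most abundant member in this class, was at 693 CPM in old and 607 CPM in young cells with s7, and at 564 CPM in old and 607 CPM in young cells without it, so its direction rested on cluster s7. Bgn was higher in old cells either way, with ratios of 3.57 (2.28 to 5.61) with s7 and 2.26 (1.34 to 3.78) without it. The other higher members were Dcn, with 11 old UMIs with s7 and 7 without it, and Nid1, with 10 old UMIs with s7 and 0 without it. Erythroid markers (all 4 detected) were at 3144 CPM in old and 383 CPM in young cells without s7, and their part in these values was not tested.

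The second lower member was Col12a1, with 7 old and 60 young UMIs. Fbn1 was at 14.2 CPM in old and 28.1 CPM in young cells, a ratio of 0.504 (0.346 to 0.718), and Loxl1 had 0.641 (0.504 to 0.808). Of the further lists, 2 of 14 laminin and basement membrane genes were lower and 1 was higher, this being the epithelial laminin chain gene Lamb3 with 26.1 CPM in old and 12.9 CPM in young cells. Of 24 other proteoglycan and glycoprotein genes 2 were lower and 3 higher, with Mfap2, a microfibril protein, at 21.9 CPM in old and 47.7 CPM in young cells. Empty droplets held Mfap2 at 20.4 CPM in the old and 18.9 CPM in the young library, so the old level was near theirs. Of 18 matrix receptors 2 were lower and 0 higher.

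Pituicyte-like cells, the glia of the posterior lobe (92 old and 57 young), had Timp3, Sparc and Serpinh1 as their leading matrix genes. Timp3 was at 579 CPM in old and 647 CPM in young cells, Sparc at 344 CPM in old and 644 CPM in young cells, and Serpinh1 at 168 CPM in old and 284 CPM in young cells. Of 14 tested members 2 were at least 2-fold lower in old cells and 0 higher, beside 3.02% lower and 8.74% higher of all 7812 genes. These were Col5a2, at 17.2 CPM in old and 62.4 CPM in young cells, and Loxl1, at 42.2 CPM in old and 87.9 CPM in young cells. The median log2 ratio was -0.60 over the members and 0.06 over all genes. The 10 fibroblast markers in these cells (7 detected in old and 6 in young cells, Clec3b and Tcf21 at 0 in both) summed to 277 CPM in old and 839 CPM in young cells, and their part in these values was not tested.

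Hormone cells contributed little matrix RNA per cell, and most of it came from few genes. The 35 genes summed to 167 CPM in old and 225 CPM in young somatotroph-like cells (1122 old and 3960 young), the growth hormone cells, a ratio of 0.742 (0.698 to 0.789). The sum was 276 CPM in old and 451 CPM in young lactotroph-like cells (281 old and 421 young), the prolactin cells, a ratio of 0.613 (0.551 to 0.681). It was 168 CPM in old and 244 CPM in young corticotroph-like cells (306 old and 1259 young), which make ACTH, a ratio of 0.689 (0.621 to 0.762). Empty droplets, that is barcodes with no more than 100 UMIs, gave a sum of 354 CPM in the old and 433 CPM in the young library. 

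In somatotroph-like cells the sum differed by no more than Serpinh1 (ENSMUSG00000070436), the collagen chaperone gene, did alone. It was at 28.5 CPM in old and 96.0 CPM in young cells, from 214 old and 2572 young UMIs, and at 36.4 CPM in old and 87.7 CPM in young empty droplets. Of 14 tested members 3 were at least 2-fold lower in old cells and 2 were higher, beside 4.04% lower and 5.36% higher of all 14724 genes. Nid1 was also lower, at 2.00 CPM in old and 4.36 CPM in young cells, beside 2.57 CPM in old and 3.69 CPM in young empty droplets. The higher Timp3 level, 12.8 CPM in old and 4.07 CPM in young cells, lay below the 51.5 and 51.2 CPM of old and young empty droplets.

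The 10 classes described by age leave out lymphocytes, monocytes and neutrophils, among others. Serpinh1 was lower in the old library in all 10, and in 6 of them the interval of the ratio lay below 1. It was at 64.8 CPM in old and 158 CPM in young lactotroph-like cells (ratio 0.411 (0.332 to 0.506)), and at 99.7 CPM in old and 146 CPM in young stem cell-like cells, with a ratio of 0.684 (0.595 to 0.784). In corticotroph-like cells it was at 9.95 CPM in old and 13.7 CPM in young cells. In macrophage-like cells it was at 5.51 CPM in old and 9.01 CPM in young cells, and for both classes the interval included 1. These levels lay below the 36.4 CPM of old and 87.7 CPM of young empty droplets, whose own ratio was 0.415 (0.352 to 0.491). With every cell thinned to 2000 UMIs, 3.48% of old somatotroph-like cells had a Serpinh1 UMI (39 of 1122, exact binomial interval 2.48 to 4.72) and 9.09% of young ones (360 of 3960, 8.21 to 10.0). Unthinned, the shares were 14.9% in old and 28.5% in young cells, at median depths of 6716 UMIs in old and 9640.0 UMIs in young cells. In T or NK cell-like cells, which are not known to secrete collagen, the Serpinh1 ratio was 1.04 (0.342 to 3.47). This wide interval also held the 0.415 of empty droplets, so the value cannot be told apart from it or from 1. The thinned share was 1.78% in old (3 of 169) and 1.36% in young cells (2 of 147). Median depths were 5437 UMIs in old and 3998 UMIs in young cells.

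**Figure D4:**
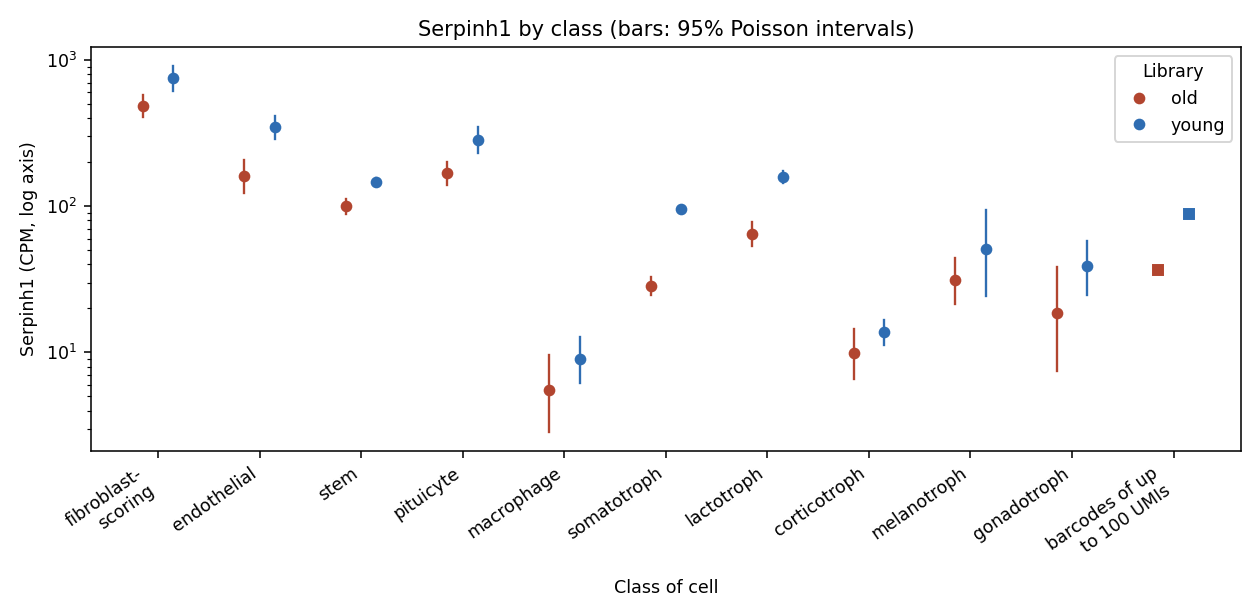
Serpinh1 level (CPM, log axis) by class of cell, old left of young, with exact 95% Poisson intervals; squares are barcodes of at most 100 UMIs. In the cell classes the old point lies below the young point, from 485 against 752 CPM in fibroblast-scoring cells to 5.51 against 9.01 CPM in macrophage-like cells.

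Col1a2 (ENSMUSG00000029661) was found almost without its partner chain in endocrine and stem cell-like cells. Type I collagen is a trimer of alpha 1 chains, from Col1a1, and an alpha 2 chain, from Col1a2. Over both libraries, somatotroph-like cells held 1773 Col1a2 UMIs and 1 Col1a1 UMI, lactotroph-like cells 607 Col1a2 and 4 Col1a1 UMIs, and stem cell-like cells 823 Col1a2 and 3 Col1a1 UMIs. In fibroblast-scoring cells Col1a1 made up 36.7% of the UMIs of the pair (exact binomial interval 32.8 to 40.8), against 0.363% (0.0750 to 1.06) in stem cell-like cells.

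The promoter window of Col1a2 on build GRCm38.p6 is shown because this gene, and not Col1a1, was read in those classes; capitals mark GC boxes and CCAAT boxes as above.
Col1a2 (chr6:4505368-4505667, plus strand): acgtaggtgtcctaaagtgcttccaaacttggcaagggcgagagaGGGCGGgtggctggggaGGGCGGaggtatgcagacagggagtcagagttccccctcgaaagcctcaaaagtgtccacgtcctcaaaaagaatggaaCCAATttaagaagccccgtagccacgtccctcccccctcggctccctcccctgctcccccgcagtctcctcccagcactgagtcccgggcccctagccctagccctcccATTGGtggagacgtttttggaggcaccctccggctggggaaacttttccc
It holds 2 GC boxes and 2 CCAAT boxes, and no TATAAA, which occurs in 13.6% of all windows.

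Col1a2 was at 101 CPM in old and 151 CPM in young lactotroph-like cells (ratio 0.668 (0.557 to 0.797)), where it had the highest mean level of the 35 genes over both libraries. It was at 50.8 CPM in old and 51.9 CPM in young somatotroph-like cells, a ratio of 0.978 (0.871 to 1.10), and at 97.4 CPM in old and 77.3 CPM in young stem cell-like cells (ratio 1.26 (1.08 to 1.46)). In empty droplets it was at 29.6 CPM in the old and 33.7 CPM in the young library. With cells thinned to 2000 UMIs, a Col1a2 UMI was found in 13.2% of old and 13.1% of young lactotroph-like cells, in 17.5% of old and 9.72% of young stem cell-like cells, and in 6.15% of old and 5.08% of young somatotroph-like cells. In T or NK cell-like cells it was 1 of 169 old and 0 of 147 young cells. Corticotroph-like cells, at 7.11 CPM in old and 3.24 CPM in young cells, were below the empty droplets.

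**Figure D5:**
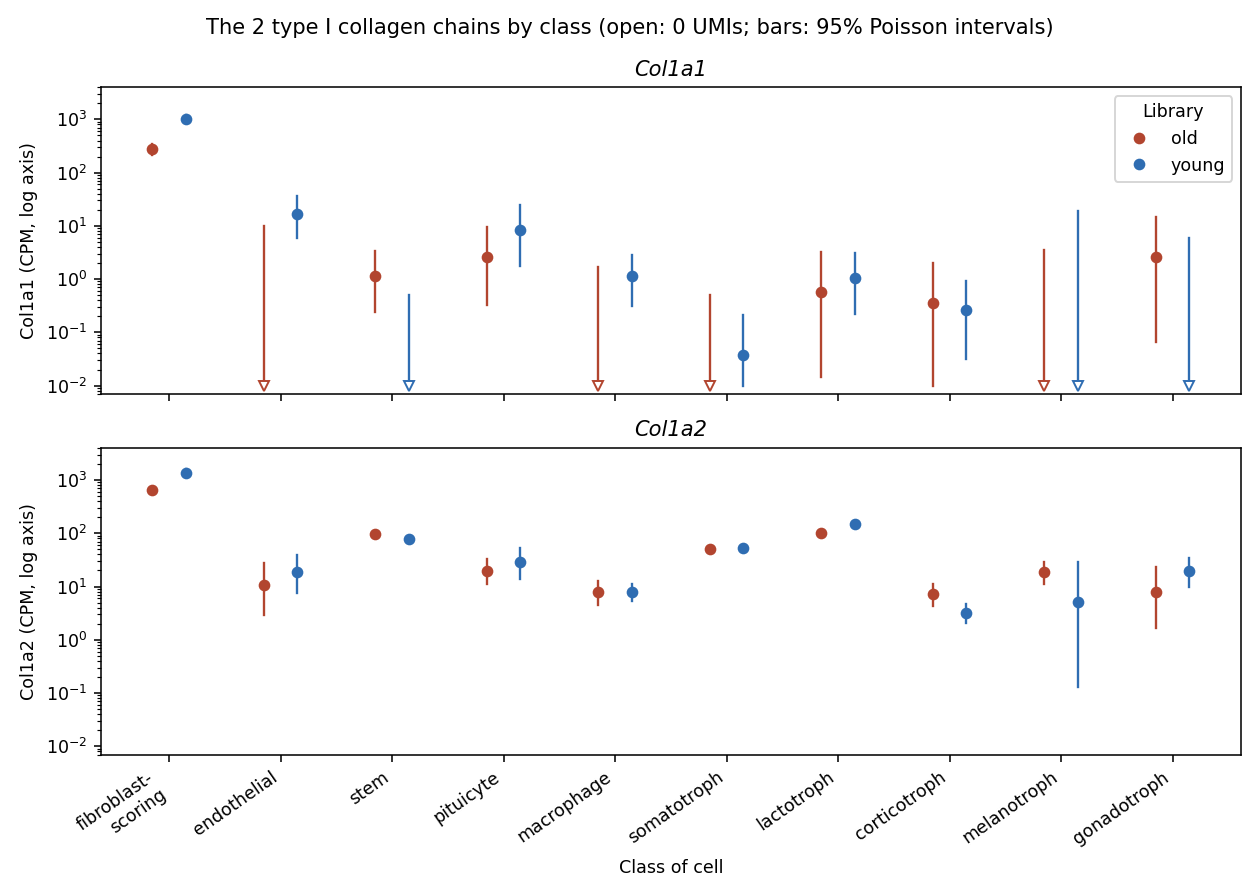
Col1a1 (top) and Col1a2 (bottom) in CPM on a log axis by class of cell, old left of young, with exact 95% Poisson intervals; open triangles are 0 UMIs. Col1a1 stands above 100 CPM in fibroblast-scoring cells only, while Col1a2 reaches 101 and 151 CPM in old and young lactotroph-like cells.

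In lactotroph-like cells 3 of 8 tested members were at least 2-fold lower in old cells and 1 was higher, beside 2.53% and 6.41% of all 11524 genes. Lamc1 was at 13.1 CPM in old and 28.4 CPM in young cells, with a ratio of 0.460 (0.276 to 0.739), and at 15.7 CPM in old and 25.4 CPM in young empty droplets. Loxl1 was at 34.7 CPM in old and 54.4 CPM in young cells, and at 19.3 CPM in old and 21.7 CPM in young empty droplets. In corticotroph-like cells 3 of 12 were lower and 2 were higher, beside 2.95% and 3.97% of all 12917 genes. Sparc, their most abundant member, was at 76.4 CPM in old and 150.0 CPM in young cells, a ratio of 0.509 (0.438 to 0.590), with 74.1 and 74.3 CPM in old and young empty droplets. Lamb1 was higher in old cells, at 9.95 CPM in old and 1.68 CPM in young cells, a ratio of 5.91 (2.96 to 12.4), where empty droplets held 2.14 and 1.85 CPM. Col6a1 was found almost entirely in young corticotroph-like cells, with 1 old and 35 young UMIs, or 0.355 CPM in old and 4.53 CPM in young cells, beside 2.08 CPM in old and 2.31 CPM in young empty droplets. Fbn1 had 4 old and 33 young UMIs, or 1.42 CPM in old and 4.27 CPM in young cells, beside 2.69 CPM in old and 2.77 CPM in young empty droplets.

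Melanotroph-like cells of the intermediate lobe (150 old and 43 young) were high in Lox, the lysyl oxidase that cross-links collagen, at 44.7 CPM in old and 30.5 CPM in young cells, against 3.73 and 3.23 CPM in old and young empty droplets. Of 4 tested members 0 were lower and 1 higher there, and of 3 in gonadotroph-like cells (33 old and 66 young) 1 was lower and 0 higher. All genes gave 4.07% lower and 8.37% higher in melanotroph-like cells, and 5.9% and 3.44% in gonadotroph-like cells. No member of either class met the rule for a described difference.

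Macrophage-like cells (416 old and 750 young) held a narrow set of matrix genes. Sparc was at 402 CPM in old and 431 CPM in young cells, and came mainly from cluster 11, with 1021 CPM in old and 1270.1 CPM in young cells. Col14a1 was at 61.0 CPM in old and 50.9 CPM in young cells, and came mainly from cluster 0, with 104 CPM in old and 76.5 CPM in young cells; empty droplets held 1.53 CPM in old and 1.38 CPM in young. Of 11 tested members 1 was at least 2-fold lower in old cells and 2 were higher, beside 1.28% and 7.26% of all 10998 genes. Timp3 was at 42.2 CPM in old and 4.22 CPM in young cells, a ratio of 10.0 (5.76 to 18.6), but both levels lay below the 51.5 and 51.2 CPM of old and young empty droplets. Both main clusters showed it, with 67.4 CPM in old and 3.62 CPM in young cells of cluster 11 and 28.0 CPM in old and 4.47 CPM in young cells of cluster 0. The 11 endothelial markers in these cells (11 detected in old and 10 in young) were at 113 CPM in old and 26.2 CPM in young cells, and their part in the Timp3 ratio was not tested. Npnt was lower, at 13.8 CPM in old and 28.1 CPM in young cells, a ratio of 0.489 (0.314 to 0.742).

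Over all barcodes, cells and empty droplets alike, the 35 genes summed to 435 CPM in the old and 541 CPM in the young library, a ratio of 0.805 (0.795 to 0.816). In barcodes of 500 to 900 UMIs alone the sum went the other way, with 337 CPM in the old and 291 CPM in the young library, a ratio of 1.16 (1.10 to 1.21). A whole-library sum cannot tell fewer cells of a type from less RNA per cell. The basement membrane genes had a ratio of 0.672 (0.652 to 0.691), the fibrillar collagens 0.743 (0.712 to 0.775), and the proteoglycans and glycoproteins 1.01 (0.983 to 1.03). At least 2-fold lower in old were 5 members, among them Npnt with 4.98 CPM in old and 15.6 CPM in young, Serpinh1 with 38.9 CPM in old and 78.9 CPM in young and Col4a1 with 11.7 CPM in old and 23.6 CPM in young. The other two were Col5a1 and Col6a3, and 1 member, Postn, was at least 2-fold higher, from 30 old and 14 young UMIs. Over all 19055 genes, 4.15% were at least 2-fold lower and 8.64% at least 2-fold higher.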

How the data were processed

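Single-cell suspensions of whole pituitaries were sequenced as 1 old and 1 young library. The deposited values are UMI counts per gene and barcode, not normalized. Per the submitters' processing notes, the authors used Cell Ranger 6.0.2 and genome build GRCm39; the matrix header names Cell Ranger 4. No column belonged to another series.

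Barcodes with at least 2000 UMIs, 500 genes and at most 15% mitochondrial UMIs were kept (9783 old and 9210 young). Scrublet's automatic threshold marked 0.0307% of old and 0% of young barcodes, so doublets were instead taken as the top-scoring barcodes, at 0.8% per 1000 barcodes, capped at 10% (766 old and 679 young). Cells were clustered with scanpy 1.11.5 (3000 variable genes, 40 principal components, 15 neighbours, Leiden resolution 1). A cluster took the name of the marker list with the highest score, unless its lead over the second was under 0.5 or fewer than 3 markers were detected, and it counted as free RNA where its profile correlated with that of empty droplets above 0.95. By the share of Gh in T or NK cell-like cells, free RNA was 16.8% of UMIs in old and 18.3% in young cells.

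UMIs were summed per class and library. Intervals are exact 95% Poisson, conditional binomial or Clopper-Pearson ones and cover counting error only. With 1 library per age no test was made, and the scripts were tested on simulated data. A gene counted as lower or higher had at least 20 UMIs in both libraries together and a ratio of at most 0.5 or at least 2. Members were described where they were among the 6 highest of a class, or held at least 20 UMIs in the higher library with a 2-fold ratio whose interval left out 1, at a level of at least 0.5 times that of empty droplets; others were given where they complete a group. The members, gene lists and rules were chosen with earlier results of these data known. Promoter sequences are from RefSeq on GRCm38.p6 and were matched by symbol.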

Additional observations from a re-analysis of the deposited data

Results flagged for a closer look

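Among ratios of at least 2-fold whose interval left out 1, with at least 20 UMIs in the higher library, 4 genes were higher in the old library in one class and lower in another. Smaller or thinner differences of other members also went both ways and are not listed. No difference between classes was tested, since each age was 1 library. Col12a1 had a ratio of old over young of 3.19 in fibroblast-scoring cells and 0.329 in stem cell-like cells. At a Leiden resolution of 2 the former turned its direction. Dcn had 2.31 in endothelial cell-like cells and 0.373 in fibroblast-scoring cells. The higher endothelial level came from cluster s2, and in cluster s4 Dcn was lower in old cells. Lamb1 had 5.91 in corticotroph-like cells, 0.0532 in fibroblast-scoring cells and, with its 0 old UMIs set at the floor of 3, 0.147 in endothelial cell-like cells. In the fibroblast-scoring pool Lamb1 lay mainly in cluster s5, with a mean of 373 CPM against 8.41 CPM in s1. Cluster s5 held 8 of the 35 old and 17 of the 26 young cells, so the mix of clusters enters the 0.0532. Within s5 Lamb1 was also at least 2-fold lower in old cells. Bgn had 3.57 in stem cell-like cells and 0.438 in endothelial cell-like cells. Without cluster s7 the stem cell-like ratio was smaller but stayed at least 2-fold.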

How the results depend on the processing

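No paired analysis was possible because each age was 1 library, so the groups shared fewer than 2 replicate numbers; for the same reason no library could be left out. Every sum kept its direction under the settings that gave a value, except the whole-library sum, which was 1.16 in barcodes of 500 to 900 UMIs alone; the cause was not tested. With no doublet removal, the ratio of old over young was 0.415 for basement membrane genes in endothelial cell-like cells and 0.559 for fibrillar collagens in fibroblast-scoring cells. At Leiden resolution 2, fibroblast-scoring cells gave 0.371 for fibrillar collagens, 0.432 for basement membrane genes and 0.829 for Col12a1, which turned its direction; the cause was not tested. With the mean of each cell's CPM, their basement membrane ratio was 0.363. With a minimum of 4000 UMIs, the member sum in corticotroph-like cells was 0.854, and fibroblast-scoring cells, with 8 young cells, gave no ratio. With all UMIs as the total, the sum was 0.893 in somatotroph-like cells, 0.685 in lactotroph-like cells and 0.859 in the whole library. That total moved all genes by 0.27 (log2) in somatotroph-like and 0.16 in lactotroph-like cells. With free RNA subtracted, the somatotroph-like sum was 0.665, and Timp3 in macrophage-like cells gave no ratio. The whole-library sum was 0.870 in barcodes of at least 500 UMIs. The pool of fibroblast-scoring cells, the removal of cluster s7, the splits of the endothelial class and the barcodes of 500 to 900 UMIs were chosen after seeing the data. The basement membrane ratio was 0.683 in stem cell-like cells without cluster s7, and 0.330 in endothelial cluster s4 alone. Members at least 2-fold lower numbered 5 to 9 in endothelial cell-like cells and 14 to 20 in fibroblast-scoring cells, and 22 to 28 members were highest in fibroblast-scoring cells. The 36 ratios that met the 2-fold rule for description gave 308 values, of which 307 kept their direction and 281 stayed at least 2-fold. Described ratios under 2-fold were not among these. The removal of cluster s7 and the splits of the endothelial class were not among the 308 values either. For the named fibroblast-like class alone (s1), which held 9 young cells, the fibrillar collagen sum is given by library but was not followed through these settings.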
